A study of Leucoraja erinaceus with 4 samples.

Results

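A group of 71 assembled genes (features) of the little skate was examined that was higher at the later of the embryonic stages sampled. At that stage the group was lower in the synarcual than in the axial skeleton behind it. At the earlier stage these features stayed short of a 2-fold lower level by their log2 difference, though by plain ratio 8 did not. They were chosen by measured values: a largest count of at least 200, a mean log2 difference between stage 33 and stage 28 of at least 2, a log2 difference between synarcual and post-synarcual of -1 or lower at stage 33, and one above -1 at stage 28. The 71 members are among 23105 features in the series, 5314 with a largest count of at least 200, and 530 "late-high" features that met the count and stage limits. RNA came from male Leucoraja erinaceus embryos, a cartilaginous fish, after removal of central nervous system and axial muscle. The groups were the stage 33 synarcual, the stage 33 post-synarcual, the stage 28 synarcual and the stage 28 post-synarcual, with 1 library each, all sequenced in a shared lane. No genotype or treatment is named. How many animals each library held, and whether both regions came from the same animals, is not stated plainly in the labels, so that stage, animal and library cannot be told apart.

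The synarcual is a tube of cartilage formed in skates and their relatives where the vertebral elements nearest the skull join, and it carries the pectoral girdle. Behind it the vertebrae stay separate. Embryonic cartilage arises from condensing mesenchyme that lays down a collagen and proteoglycan matrix, and in cartilaginous fishes part of it later mineralises in small blocks called tesserae. Skeletal dissections can also hold connective tissue, vessels, blood and remnants of muscle, each with its own genes that turn on as it matures.

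No feature is paired with a gene name in the deposited files, and a search of the species' RefSeq table found 0 of the identifiers. Members are therefore given by assembly identifier, length and values, with no function. For the same reason the dissected tissue could not be checked against cartilage or muscle genes. Library totals ran from 3922525 to 5092346 estimated counts. Counts were scaled by trimmed-mean (TMM) effective library size and are given as CPM, a count relative to that size. A log2 difference carries a prior count of 2, which draws values of low counts toward 0, whereas a fold is the plain ratio of scaled counts with its 95% counting interval. With 1 library a group there was no test, and intervals cover counting error only. In bulk tissue, fewer cells of a type and less RNA per cell cannot be told apart.

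All 71 members had their highest scaled level in the stage 33 post-synarcual, the next in the stage 33 synarcual, and lower levels in both stage 28 libraries. The rule largely sets this order, so nothing is read from it. The members nearest the medians of the group show its typical shape. TRINITY_DN31876_c0_g1 (2911 bp) was read at 194 CPM (758 counts) in the stage 33 synarcual library and 590 CPM (1794 counts) in its post-synarcual counterpart, and at 21.7 CPM (125 counts) and 28.8 CPM (162 counts) in those of stage 28. The synarcual level was lower by 3.03-fold at stage 33 (interval 2.79 to 3.31) and by 1.32-fold at stage 28 (1.04 to 1.69). TRINITY_DN40608_c3_g1 (2990 bp) had 269 synarcual and 624 post-synarcual counts at stage 33, then 48 and 73 at stage 28. Here the synarcual was lower by 2.97-fold at stage 33 (2.57 to 3.44) and by 1.55-fold at stage 28 (1.06 to 2.28). In both features the later stage was far above the earlier one in either region, and the gap between regions was wider at the later stage. The rule asks for a rise between stages and for a lower region difference at stage 33, so these traits follow from it.

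**Figure D1:**
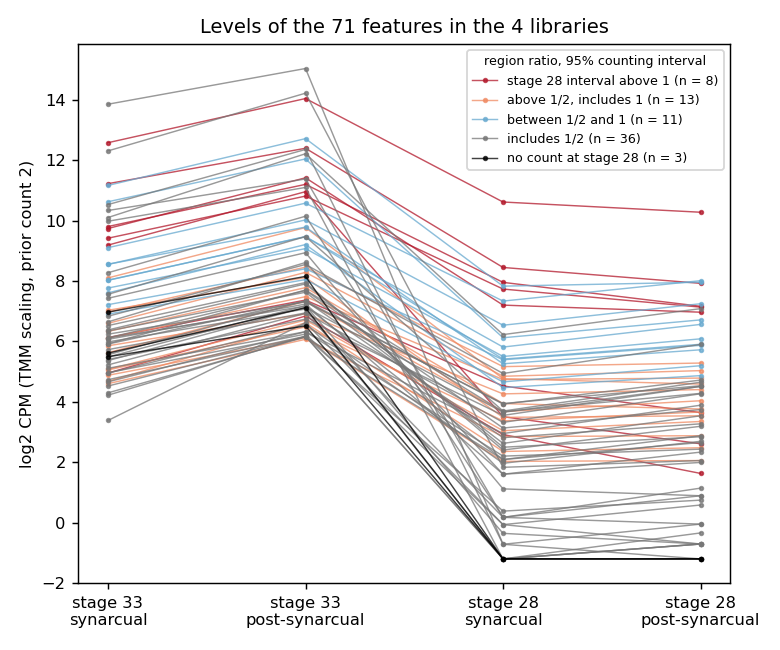
Each line is 1 of the 71 members, with its log2 CPM (TMM scaling, prior count 2) in the 4 libraries on the horizontal axis, coloured by the 95% counting interval of the stage 28 synarcual over post-synarcual ratio. Every line is highest in the stage 33 post-synarcual, which the rule largely sets, and the 3 black lines had no count at stage 28.

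At stage 33 the members' log2 region difference, synarcual minus post-synarcual, had a median of -1.47, with quartiles of -1.70 and -1.24. The range ran from -3.24 to -1.02. Of the 71, 39 lay between -1.5 and -1 and 30 between -2 and -1.5, which left 2 below -2. As plain ratios the synarcual level was 2.03-fold to 9.79-fold lower, with a median of 2.77-fold. Among all 5314 features with a largest count of at least 200, 5.72% had a log2 difference of -1 or lower at stage 33, but the rule fixed this value for the members, so nothing is read from it. The counting interval of the stage 33 ratio lay below 1 in all 71 members and below 0.5 in 58, so 13 were not separated by counting error from a level 2-fold lower. The rule favours such intervals and their share over all features was not computed, so nothing is read from the 71 and 58.

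The lowest stage 33 region difference was that of TRINITY_DN42536_c1_g1 (2258 bp), with 39 synarcual and 298 post-synarcual counts. This was a 9.79-fold lower level in the synarcual (6.999 to 14.1). It had 3 and 1 counts at stage 28, at or under the 3 counts that a count of 0 allows, and no stage 28 fold is given for it. The next was TRINITY_DN42602_c2_g7 (696 bp), with 4276 and 14413 counts at stage 33, a 4.32-fold lower level (4.18 to 4.47). At stage 28 it had 428 and 762 counts, which was 1.82-fold lower (1.61 to 2.05). The synarcual of this second feature was thus below the post-synarcual at both stages, and its stage 28 interval reaches past the 2-fold limit of the rule. Its component holds 7 features, and its counts were not whole in 3 of the 4 libraries, so reads may be split with close copies.

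**Figure D2:**
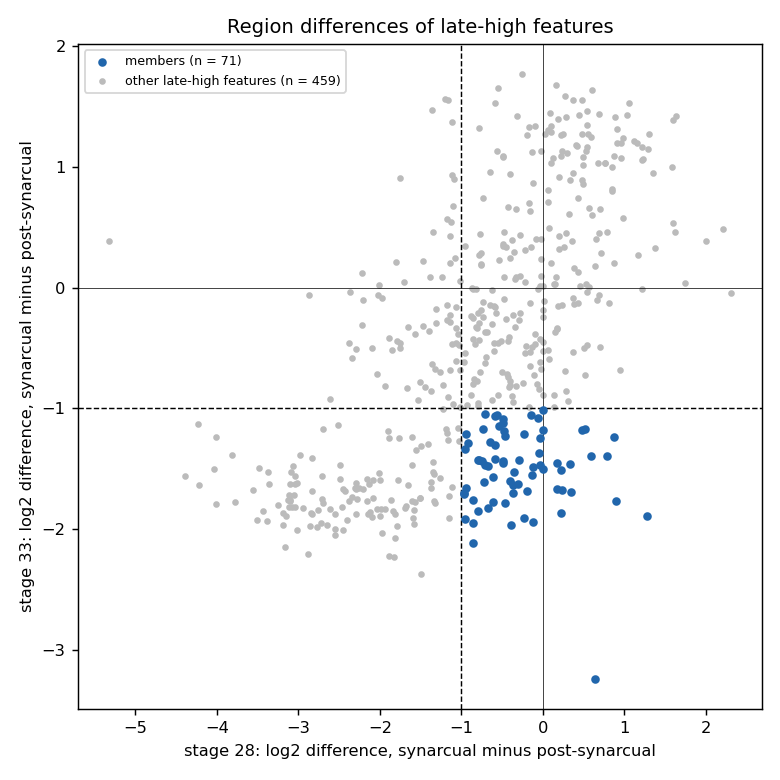
Log2 difference of synarcual minus post-synarcual at stage 28 (horizontal) and stage 33 (vertical) for the 530 late-high features, with members in blue and the limits of -1 as dashed lines. Members fill the lower right field by the rule, and the isolated lowest point at -3.24 is TRINITY_DN42536_c1_g1.

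At stage 28 the members' log2 region difference had a median of -0.40, with quartiles of -0.69 and -0.0137 and a range from -0.97 to 1.29. By the sign of the log2 difference the synarcual was the lower region in 53 members and the higher in 15, and 3 had no count in either library. Some of these signs rest on 1 count against 0. The share of all features by sign was not computed, and over the 5314 features the median difference was 0.043. The rule cuts only the low side of the members, so nothing is read from the 53 and 15. Without the 11 members at or under 3 counts in both stage 28 libraries the median of the other 60 was -0.43. Among all 5314 features with a largest count of at least 200, 6.40% had a stage 28 log2 difference of -1 or lower, a class the rule excludes. In the 257 late-high features whose stage 33 difference was under 1 in size the median was also below 0, at -0.43. These were not cut at -1 at stage 28, and their lower quartile was -1.03. Their median is therefore not on a par with that of the members. The 71 late-high features higher in the synarcual at stage 33 leaned the other way, with a median of 0.43. Over all 530 the median was -0.62. These include the members and 131 features at or below -1 at both stages.

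Both the stage 28 counts and the distance of the ratio from 0.5 bore on how firmly a member could be separated from features lower at both stages. Of the 71 members, 38 had at least 100 counts over the stage 28 libraries together, 16 had 20 to 99 and 17 had fewer than 20. The counting interval of the stage 28 ratio lay wholly above 0.5 in 32 members, or 45.1%, against 40.2% of all late-high features. The rule keeps features at or below -1 at stage 28 out of the members but not out of that background, so nothing is read from the excess. Of these 32 members, 27 had at least 100 summed stage 28 counts and 5 had fewer. In another 36 members the interval included 0.5, so that a 2-fold lower synarcual level at stage 28 was not excluded by counting error. The remaining 3 had no stage 28 count. In 8 members the plain ratio was at or below 0.5, and the prior count alone brought their log2 difference above -1. The members with an interval above 0.5 had median stage 28 counts of 158.5 (synarcual) and 193 (post-synarcual), and those whose interval included 0.5 had 21 and 30.5. For 39 of the 71 features, then, the absence of a 2-fold difference at stage 28 was not shown at this depth.

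Among the 32 members with a stage 28 interval above 0.5, the synarcual was lower, level or higher. In 11 the interval lay between 0.5 and 1, with the synarcual 1.09-fold to 1.69-fold lower. In 13 it included 1, where no region difference was detectable at stage 28. In 8 it lay above 1, so the synarcual was the higher region at stage 28 and the lower one at stage 33. Intervals above 1 at stage 28 were found in 13.4% of late-high features and in 32.7% of the 5314 features that passed the count limit, against 11.3% of the members, a share not above either. Such shares were not computed for the classes of 11 and 13, so nothing is read from those numbers. The 11 are also not all the members that were lower in the synarcual at stage 28 beyond counting error. Some of the 36 members whose interval included 0.5 had an upper bound below 1. In TRINITY_DN45130_c0_g1, for instance, the interval ran from 0.422 to 0.614.

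**Figure D3:**
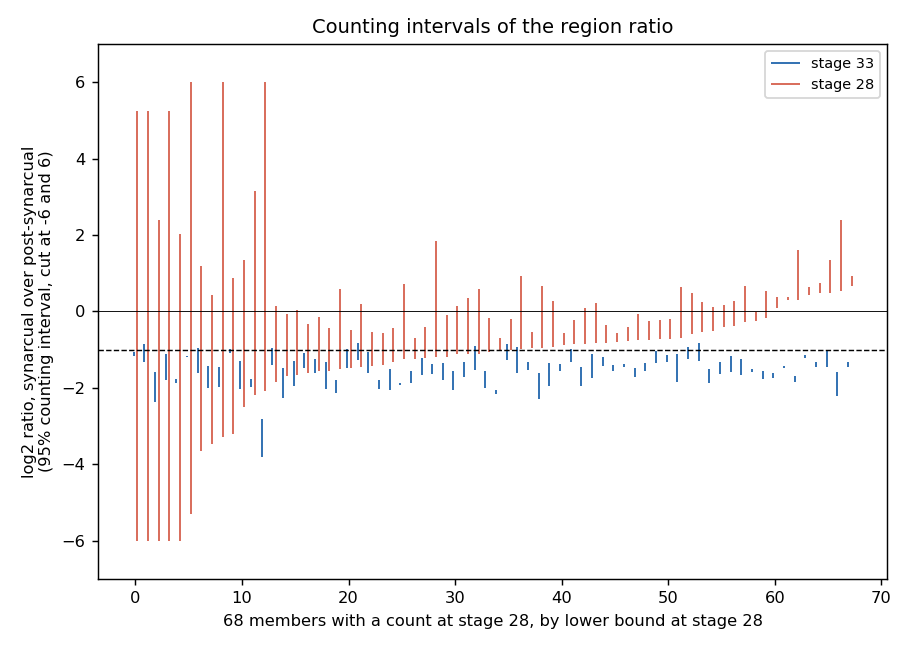
95% counting intervals of the synarcual over post-synarcual ratio on the log2 scale (vertical, cut at -6 and 6) at stage 33 in blue and stage 28 in red, for the 68 members with a stage 28 count, ordered along the horizontal axis by the lower bound at stage 28. The dashed line marks a 2-fold lower synarcual level: 36 of the red intervals cross it, and all blue intervals lie below 0.

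The highest stage 28 region differences belonged to TRINITY_DN36355_c0_g1 (1615 bp) and TRINITY_DN40660_c0_g1 (3626 bp). The first had 119 synarcual and 347 post-synarcual counts at stage 33, then 41 and 15 at stage 28. Its synarcual level was lower by 3.74-fold at stage 33 (3.03 to 4.64) and higher by 2.68-fold at stage 28 (1.45 to 5.20). The second had 2270 and 6038 counts at stage 33, and 63 and 32 at stage 28. Its synarcual level was lower by 3.41-fold at stage 33 (3.25 to 3.58) and higher by 1.93-fold at stage 28 (1.24 to 3.05). Both features thus had their higher stage 28 level in the region that was the lower one at stage 33.

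The change of the region difference between stages, stage 33 minus stage 28, had a median of -1.13 log2 and ran from -3.88 to -0.27. It was at least 1 log2 in size in 40 members and under 0.5 in 7. The rule bears on these sizes and their shares over all features were not computed, so nothing is read from the 40 and 7. The ratio of the stage 33 to the stage 28 region ratio had a counting interval below 1 in 50 members, and in 21 the interval included 1. That interval lay below 1 in 19.8% of late-high features and in 25.2% of the features with a largest count of at least 200, and since the rule asks for a lower value at stage 33 than at stage 28, nothing is read from the excess. With scaling to total counts, 30 members kept an interval below 1. With total counts, and also with deposited TPM, the region difference was lower at stage 33 than at stage 28 in 62 of the 71. The 21 members whose TMM interval included 1 are features whose region difference was not shown to change between stages beyond counting error.

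The stage difference was larger in the post-synarcual than in the synarcual in all 71 members, which follows from the rule. The log2 difference of stage 33 minus stage 28 had a median of 2.91 in the synarcual, with a range from 1.37 to 14.56, and of 4.09 in the post-synarcual, with a range from 2.22 to 16.23. It was at least 2 in 53 members for the synarcual and 71 for the post-synarcual. The mean over both regions was between 2 and 3 in 27 members, between 3 and 4 in 14, between 4 and 6 in 16, between 6 and 8 in 7, and above 8 in 7. The median of that mean was 3.49, and with the 8 members that had a count of 0 at stage 28 set at the floor of 3 counts it was also 3.49, a value these could not change since all lay well above it. Of the 5314 features, 9.97% reached a mean stage difference of 2.

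The members with few stage 28 counts were also those with the largest stage differences. The 17 members under 20 summed stage 28 counts had a median stage difference of 7.20 log2, against 3.76 for those with 20 to 99 counts and 2.64 for those with at least 100. The limit of 200 on the largest count bears on this, since a feature with few counts at stage 28 can pass it only by a large stage difference. The stage 33 region differences of these sets had medians of -1.502, -1.57 and -1.45 in the same order.

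The 2 largest stage differences belonged to TRINITY_DN39530_c0_g4 (mean length 2692 bp over its 3 transcripts) and TRINITY_DN43754_c0_g1 (1752 bp). The first had 57510 synarcual and 101759 post-synarcual counts at stage 33, against 1 and 0 at stage 28, and its stage 33 synarcual level was lower by 2.27-fold (2.25 to 2.29). Its post-synarcual level was 62806-fold higher at stage 33 when 3 counts were put in place of the stage 28 count of 0. The lower bound of the counting interval of that stage ratio was 51077. The second had 5753 and 15896 counts at stage 33, against 1 and 3 at stage 28. It was 3.54-fold lower in the synarcual at stage 33 (3.44 to 3.65). Neither had enough stage 28 counts for a region ratio, so their place among features lower only late rests on stage 33 alone.

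Per unit of length, the members with the highest mean TPM at stage 33 were TRINITY_DN21943_c0_g1 (765 bp) and TRINITY_DN36118_c0_g1 (1306 bp). The first reached 12222 TPM (synarcual) and 31979 TPM (post-synarcual) at stage 33, with 9.74 and 12.8 TPM at stage 28. By scaled counts its synarcual level was lower by 3.76-fold at stage 33 (3.70 to 3.82) and by 1.19-fold at stage 28 (0.605 to 2.37, from 18 and 21 counts). The second had 7524 TPM (synarcual) and 14540 TPM (post-synarcual) at stage 33, then 2508 and 2177 TPM at stage 28. Its synarcual level was lower by 2.75-fold at stage 33 (2.71 to 2.80) and higher by 1.26-fold at stage 28 (1.23 to 1.30). At stage 28 the first stood near the members' median TPM in both regions, and the second had the most counts of any member.

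Of all counts, the members together took 3.80% (synarcual) and 7.52% (post-synarcual) at stage 33, against 0.531% and 0.538% at stage 28. Their summed share, which carries no TMM scaling, was lower in the synarcual at stage 33 and near equal between regions at stage 28. The members were chosen by their region differences at both stages, so nothing is read from this contrast. Much of the summed share came from few features. The 5 members with the highest stage 33 post-synarcual TPM held 66.0% (synarcual) and 68.4% (post-synarcual) of the members' summed TPM at that stage. Without TRINITY_DN36118_c0_g1, the member with the most stage 28 counts, the shares were 3.30% and 6.52% at stage 33, and 0.315% and 0.360% at stage 28. The median TPM of the members was 66.0 (synarcual) and 112 (post-synarcual) at stage 33, then 8.94 and 12.1 at stage 28.

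The members were set beside the 131 late-high features at or below -1 in both stages, which share their stage 33 limit, and the 257 late-high features with a stage 33 difference under 1 in size. At stage 33 the members had a median log2 region difference of -1.47, against -1.74 in the 131, and at stage 28 of -0.40 against -2.30. The members' region difference was lower at stage 33 than at stage 28 by a median of 1.13 log2, whereas in the features lower at both stages it was higher at stage 33 by a median of 0.61. Their stage differences also differed in where the larger part lay: for members the medians were 2.91 (synarcual) and 4.09 (post-synarcual), against 4.86 and 4.10 for the features lower at both stages. In the 257 the median region difference was -0.16 at stage 33 and -0.43 at stage 28, and the median stage difference was 3.28 (synarcual) and 2.97 (post-synarcual). The rule fixes most of these contrasts, and none was tested. The share with fewer than 20 summed stage 28 counts was 23.9% of members, against 9.16% of the features lower at both stages and 12.5% of all late-high features. The rule bears on this share too, since the prior count draws stage 28 differences of low counts toward 0 and so above -1.

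Properties that the rule did not use were described and not tested. The median length was 2073 bp in members, against 2099 bp in the features lower at both stages, 2342 bp in all late-high features and 2658 bp in all 5314 features. Of the members, 64.8% listed a single transcript, against 74.0%, 73.0% and 72.1% in the same order. In 12.7% of members the assembly component held another feature, against 19.1%, 16.8% and 12.1%. Counts were not whole in some library, a sign of reads shared between features, in 5 members, or 7.04%, against 4.58%, 6.42% and 3.01% in the same order.

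The length that the files give for a feature with several transcripts is an average weighted by their use in each library, and so reports on transcript use. Of the 25 members with several transcripts, 20 had at least 20 counts in every library. Among these 20 the length in the synarcual differed from that in the post-synarcual by a median of 0.688% at stage 33 and 0.470% at stage 28, and that at stage 33 from that at stage 28 by 1.26%. None differed by more than 10% between regions at stage 33, while 3 did so between regions at stage 28 and 3 between stages. Those 3 at stage 28 had 48 and 73, 33 and 63, and 108 and 117 counts (synarcual and post-synarcual), fewer than at stage 33. Transcript use of other features was not compared, so nothing is read from these numbers.

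Among these 20, the 2 members with the largest rise and the largest fall in length between stages were singled out after their values were seen. TRINITY_DN42407_c0_g3, with 4 transcripts, had mean lengths of 5434 bp (synarcual) and 5394 bp (post-synarcual) at stage 33, against 2821 and 3353 bp at stage 28, from 315, 600, 33 and 63 counts in the same order. On the log2(TPM + 1) scale, which corrects for length, its mean stage difference was 2.21, against 3.90 by counts. The same change of scale gave a median over all members of 2.68, against 3.49 by counts. TRINITY_DN39512_c2_g1, also with 4 transcripts, had mean lengths of 2334 and 2140 bp at stage 33, against 3145 and 2821 bp at stage 28. Its mean stage difference was 1.74 on the log2(TPM + 1) scale and 2.05 by counts. In both features the regions of 1 stage were closer to each other than to the other stage.

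**Figure D4:**
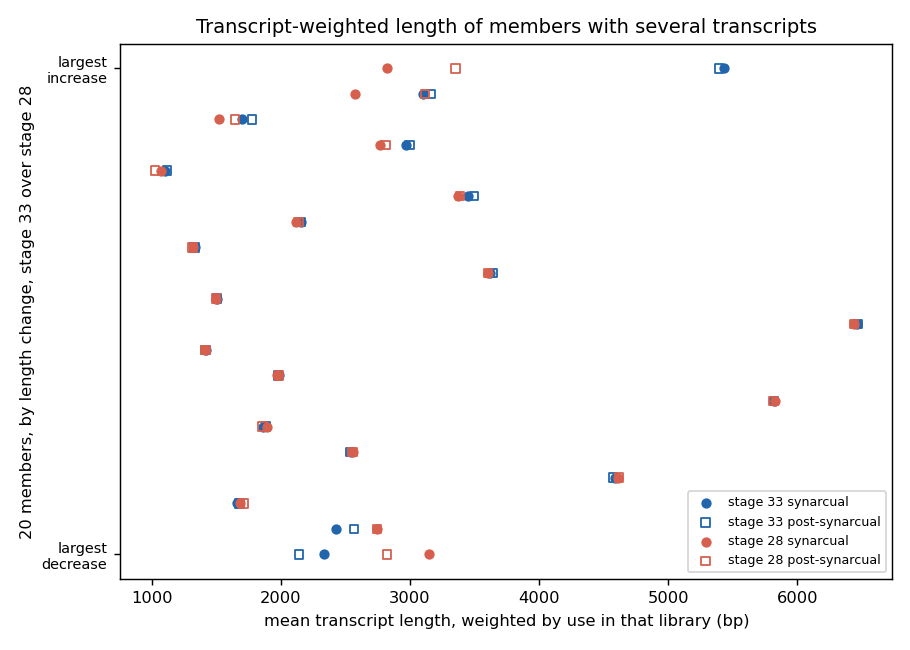
Mean transcript length in bp, weighted by transcript use in each library (horizontal), for the 20 members with several transcripts and at least 20 counts in every library, 1 per row, with stage 33 in blue and stage 28 in red, synarcual filled and post-synarcual open. The top row stands at 5434 and 5394 bp at stage 33 and the bottom row at 2334 and 2140 bp, both apart from their stage 28 marks, while most other rows show overlapping marks.

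Several members came from the same assembly cluster, the group of contigs that share the DN number of their identifier and may be pieces or close copies of 1 gene. There were 4 clusters with more than 1 member, holding 8 members. TRINITY_DN42536_c1_g1, described above, shares its cluster with a member of 2599 bp, and their stage 33 region differences were -3.24 and -1.63. In the other 3 clusters the pairs had stage 33 region differences of -1.12 and -1.09, of -1.04 and -1.502, and of -1.42 and -1.85. The 71 members may therefore stand for fewer than 71 genes. The cluster of the pair at -1.12 and -1.09 also holds TRINITY_DN38210_c2_g3 and TRINITY_DN38210_c2_g6, late-high features that are not members. Their stage 33 region differences were -0.90 and -0.24. At stage 28 the former stood at -1.16, from 5 synarcual and 14 post-synarcual counts, and the latter had no count.

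Values near the limits of the rule were continuous across them. At stage 33 the nearest member stood at -1.02 and the nearest feature outside at -0.99. At stage 28 they stood at -0.97 and -1.02, for the stage difference at 2.03 and 1.98, and for the largest count at 203 and 185. Within 0.25 log2 of a limit lay 19 members for the stage 33 difference, 13 for the stage 28 difference and 8 for the stage difference.

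The size of the stage 33 difference rested on the scaling, and its sign was fixed by the rule, since no count scaling moved values far enough to turn it. With libraries scaled to their total counts, 35 of the 71 members were at or below -1 at stage 33 and the median was -0.998. In the same setting 64 stayed above -1 at stage 28 and 44 kept a mean stage difference of at least 2. Total counts moved the median of the 14668 features used for scaling to 0.45 in that comparison and to -0.99 for the stage difference, against 0.0042 and -0.0269 with TMM. On the log2(TPM + 1) scale, 30 of the 71 were at or below -1. Relative to the bulk of features the members were at least 2-fold lower in the stage 33 synarcual, and as a share of all counts 36 of them were not.

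**Figure D5:**
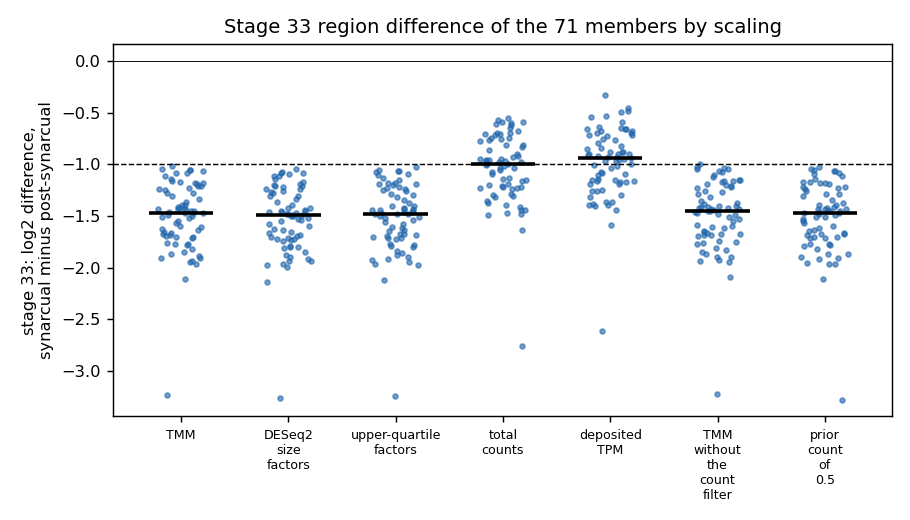
Log2 difference of synarcual minus post-synarcual at stage 33 (vertical) for each of the 71 members under 7 settings (horizontal), with the median as a bar, the limit of -1 dashed and points spread sideways for legibility. The medians are -0.998 with total counts and -0.94 with deposited TPM, against -1.47 with TMM.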

How the data were processed

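RNA was sequenced from 4 libraries, 1 in each of 4 groups. The libraries were unstranded, per the labels' protocols. The submitters' processing notes name RSEM and Bowtie2; for the assembler, versions and filters, nothing was given in the sources used here. The deposited estimated counts are RSEM expected counts, not normalized, per the file headers. The authors' TPM values are corrected for length and sum to the same total in each library. Deposited lengths, in bases, are weighted by the authors' pipeline over transcripts.

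Estimated counts of the series table were rounded. TMM factors (edgeR 4.0.16, R 4.3.3) came from 14668 features that reached 10 counts in 2 or more libraries, and effective sizes were applied to all features. Log2 CPM used a prior count of 2. Ratios of scaled counts have exact 95% Clopper-Pearson intervals, and ratios of ratios have log-normal intervals with 0.5 added to each count. The functions were tested on simulated data. No test was made, since each group has 1 library and the rule uses all of them. Reads without molecular identifiers are not independent molecules, and without strand, reads of overlapping antisense genes cannot be separated. A count of 0 allows up to 3 counts, between 0.521 and 0.986 CPM.

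The members and lists were chosen with earlier results of these data known. Members were named as the 2 with the largest mean stage difference, the lowest stage 33 and the highest stage 28 region difference, the highest mean stage 33 TPM, and the values nearest the medians. Alternatives were DESeq2 1.42.0 size factors, upper-quartile factors, total counts, log2(TPM + 1), no count filter, a prior count of 0.5 and other limits.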

Additional observations from a re-analysis of the deposited data

Results flagged for a closer look

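In 8 of the 71 members the region difference went in opposite directions at the 2 stages: the synarcual was 2.25-fold to 3.74-fold lower at stage 33 and 1.18-fold to 2.68-fold higher at stage 28, each beyond counting error. These are 11.3% of members, and a stage 28 interval above 1 was found in 13.4% of late-high features and 32.7% of the 5314 features with a largest count of at least 200, so the share is not above the background, and the rule fixed the stage 33 direction. The number was 8 under each count scaling for which intervals were computed. The largest changes, stage 33 minus stage 28, were -3.17 log2 in TRINITY_DN36355_c0_g1 and -2.67 log2 in TRINITY_DN40660_c0_g1, whose stage 28 values rest on 56 and 95 counts. With 1 library a group, this change was not tested.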

How the results depend on the processing

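With DESeq2 size factors, upper-quartile factors, TMM without the count filter or a prior count of 0.5, the number of members stayed between 65 and 76, and at least 65 of the 71 met the rule again. With total counts 21 features met it, all of them among the 71, and 6 of these 21 had a stage 28 interval above 0.5. In that setting the median of the 71 was -0.998 at stage 33 and their median stage difference 2.503. With deposited TPM 22 features met it, 21 of them members. The medians of the 71 were then -0.94 at stage 33 and 2.68 for the stage difference. Under all of DESeq2, upper-quartile, total-count, unfiltered TMM and TPM scaling 19 members were kept. A largest count of at least 50 gave 124 features, and one of at least 1000 gave 29, of which 18 had a stage 28 interval above 0.5. A stage 28 limit of -0.5 gave 43 features. A stage 33 limit of -1.5 gave 32, of which 10 had such an interval. Of 180 recomputed values of named members, 43 moved by more than their counting error, 35 of these with total counts or deposited TPM. The other 137 include the stage 28 and mean stage differences of TRINITY_DN39530_c0_g4, which had no finite counting error to compare with. Its stage 28 difference was 0.48 with the main setting and 1.37 with a prior count of 0.5. No paired analysis was possible because each group has 1 library. Depth limits the stage 28 ratios most: the median half-width of their counting interval was 0.53 log2, against 0.20 log2 at stage 33.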

Other observations

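The assembly cluster of TRINITY_DN42602_c2_g7 holds 12 features, 3 of them late-high. The other 2 late-high features, of 1028 and 689 bp, were lower in the synarcual at both stages, with log2 region differences of -1.84 and -1.97 at stage 33 and of -1.58 and -2.65 at stage 28. Over the 19 clusters of more than 1 feature that hold a member there were 34 other features, of which 17 had a largest count of at least 200 and 5 were late-high.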
